A study of Macaca fascicularis with 6 samples.

Results

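The 7 genes described here are secreted or transported products of the airway lining, namely the secretoglobins SCGB1A1 (ENSMFAG00000043963), SCGB3A1 (ENSMFAG00000040059) and SCGB3A2 (ENSMFAG00000043130), the BPI-fold protein BPIFB1 (ENSMFAG00000036542), the polymeric immunoglobulin receptor PIGR (ENSMFAG00000038611), the gel-forming mucin MUC5B (ENSMFAG00000001864) and WFDC2 (ENSMFAG00000030693), a protein with whey acidic protein domains. They were taken by symbol, and each of the 7 matched exactly 1 of the 28623 genes in the files. Lung cells of 6 male cynomolgus monkeys aged 3 to 5 years were compared, 3 in the control group (replicates 1, 2 and 3) and 3 in the asthma group (replicates 8, 10 and 11). Monkeys of the asthma group had been sensitized with an injection of Ascaris suum allergen at 1 mg/mL and later challenged through the nose at 10 mg/mL, control monkeys had received saline, and all 6 lungs were taken in week 11. Each monkey gave 1 droplet library.

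The surface of the conducting airways is covered by secretory (club and goblet), ciliated and basal cells. Club cells secrete small proteins called secretoglobins, of which SCGB1A1 is the classical club cell protein. SCGB3A1 is known mainly from the larger airways and SCGB3A2 from the most distal ones, where the conducting airways meet the alveoli. BPIFB1 and WFDC2 are secreted defence proteins, PIGR carries dimeric IgA from the tissue side to the lumen, and MUC5B is a main polymer of airway mucus.

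A total of 40556102, 33210436 and 32240293 molecules, counted by unique molecular identifiers (UMIs), made up control replicates 1, 2 and 3, and asthma replicates 8, 10 and 11 had 41184329, 41489879 and 29014556. Below, values of the 6 libraries are always given in this order. After removal of barcodes with few or very many genes or a large mitochondrial share, 24235 of 35133 barcodes were kept as cells. Among all barcodes, 137 sequences occurred in 2 libraries, 75 of them among the kept cells. Cells were clustered without the 7 genes and named from marker genes, with -like added to each name, and no annotation made by the authors entered, so that a difference from the study may come from the rebuilt names. The labelled tissue, lung, was borne out by alveolar type 2-like (AT2-like) cells, in which the surfactant gene SFTPC stood at 236358 CPM, the UMIs of a gene scaled to a total of 1000000 UMIs over the cells summed. SFTPC was itself among the markers that named these cells.

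There were 913 epithelial-like cells. They comprised 366 AT2-like, 206 alveolar type 1-like (AT1-like), 155 basal-like, 17 airway secretory-like and 16 ciliated-like cells, and 2 groups that no marker list named, of 91 cells led by SPINK1 and CYP2A23 and of 62 cells led by S100A4 and TNNC1. In the airway secretory-like cells, 8 of 9 marker genes of that list were detected, with SLPI the most abundant at 5506 CPM and BPIFA1 at 0. The same list had named the group, so this describes the cells and is no separate evidence for the name. Markers of other cells were low there, with SFTPC at 63.7, KRT5 at 60.1 and JCHAIN at 3.54 CPM, and CD3E at 0.

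Most secretoglobin UMIs lay in a pair of small groups of epithelial-like cells. SCGB1A1 and SCGB3A1 were highest in the airway secretory-like cells, at 118125 and 187767 CPM over all 6 libraries, and SCGB3A2 was highest in the SPINK1-led cells, at 93018 CPM. The assay counts molecules at their 3′ end, so the values were not divided by gene length. The 17 airway secretory-like cells held 62.0% of all SCGB1A1 UMIs and 87.8% of all SCGB3A1 UMIs in kept cells, and the 91 SPINK1-led cells held 92.5% of all SCGB3A2 UMIs. Since the groups were found by clustering the same cells, these shares describe where the genes lay and were not tested.

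**Figure D1:**
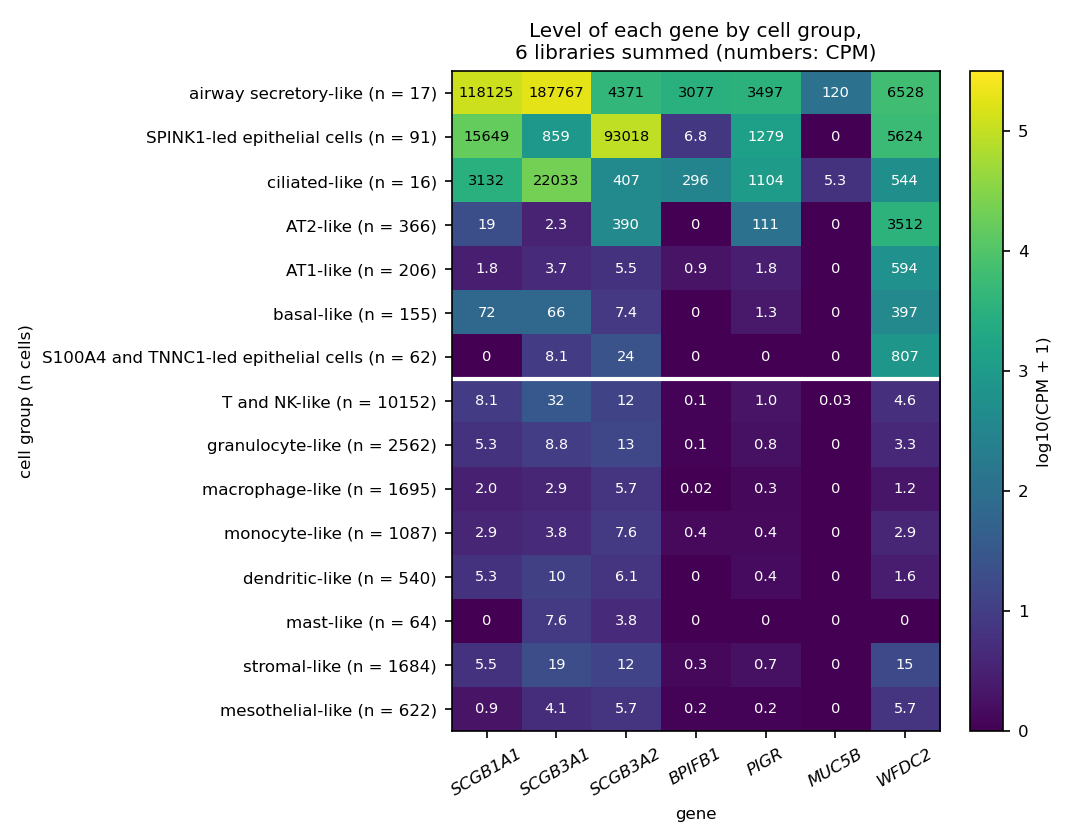
Level of each of the 7 genes (columns) in 15 cell groups (rows, epithelial-like groups above the white line), as CPM over the summed UMIs of all 6 libraries, with colour on a log10(CPM + 1) scale. SCGB1A1 (118125 CPM) and SCGB3A1 (187767 CPM) peak in airway secretory-like cells, SCGB3A2 (93018 CPM) in SPINK1-led cells, and WFDC2 is present in every epithelial-like group.

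SCGB1A1 was detected in all 17 airway secretory-like cells, where it made up a median of 7.13% of a cell's UMIs and at most 25.7%. Its level in these cells was 208372, 198991 and 103965 CPM for controls 1, 2 and 3, against 26429, 72080 and 231038 CPM for asthma 8, 10 and 11. The highest and the lowest libraries were both asthma libraries, so the groups overlapped, and each value rested on 1 to 6 cells. In asthma replicate 11, 1 of its 2 cells held 4789 of 4886 UMIs and was among the kept cells with the highest doublet scores. Without this cell, an alternative chosen after seeing the data, the level was 38370.3 CPM from a single cell of 2528 UMIs, and all asthma libraries lay below all controls. How many other genes separate in this way in these cells was not determined, so no difference between the groups is read from it. In the SPINK1-led cells SCGB1A1 was found in 80 of 91 cells, at a median of 0.305% of a cell's UMIs. Levels there were 21251 and 19754 CPM in control replicates 1 and 3 (22 and 17 cells) and 11246 and 13462 CPM in asthma replicates 10 and 11 (28 and 20 cells). Control replicate 2 had 0 such cells and asthma replicate 8 had 4, in which the level was 2075 CPM.

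SCGB3A1, a secretoglobin of the larger airways, was more uneven. Its level in airway secretory-like cells was 199679, 20914 and 168543 CPM for controls 1, 2 and 3, against 308186, 296444 and 18252 CPM for asthma 8, 10 and 11. Control replicate 2 and asthma replicate 11 were thus low and the other 4 libraries high. Without the cell of high doublet score asthma replicate 11 was still low, at 18987 CPM. In SPINK1-led cells SCGB3A1 came to 1014 UMIs in all, of which 1004 lay in a single cell of control replicate 3. Ciliated-like cells had 4171 UMIs, of which 4085 came from asthma replicate 8, where 2 of 3 ciliated-like cells carried them.

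SCGB3A2, the secretoglobin of the distal airways, was found in 81 of 91 SPINK1-led cells at a median of 6.77% of a cell's UMIs and at most 30.9%. In the libraries with at least 10 such cells its level was 118314 and 47822 CPM in control replicates 1 and 3 and 94125 and 86293 CPM in asthma replicates 10 and 11. Both asthma libraries lay between the control libraries, and the 4 cells of asthma replicate 8 were above them, at 129042 CPM. The airway secretory-like cells had 4371 CPM, of which the 1 cell of control replicate 2 (589 UMIs) and 1 cell of asthma replicate 10 (571 UMIs) gave most.

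Within single cells the secretoglobins went together in 2 combinations. With 1% of a cell's UMIs as the limit, 15 of 17 airway secretory-like cells were above it for both SCGB1A1 and SCGB3A1, and 2 of 17 for both SCGB1A1 and SCGB3A2. Of the SPINK1-led cells, 71 of 91 were above it for SCGB3A2, and 22 of these 71 also for SCGB1A1. SCGB3A1 and SCGB3A2 were above it together in 3 of the 913 epithelial-like cells.

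**Figure D2:**
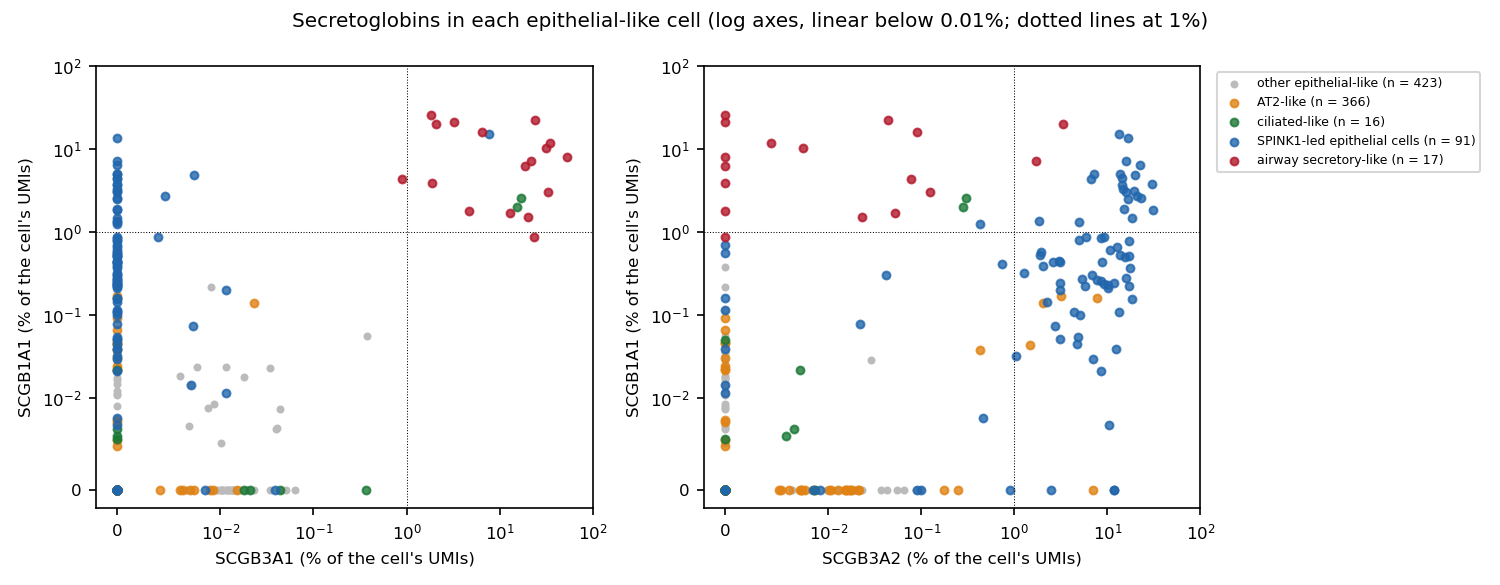
SCGB1A1 (vertical axes) against SCGB3A1 (left) and SCGB3A2 (right) in each of 913 epithelial-like cells, as percent of the cell's UMIs on log axes that are linear below 0.01%, with dotted lines at 1%. Airway secretory-like cells lie in the upper right corner of the left panel, 15 of 17 above both lines, and SPINK1-led cells on the right side of the right panel, 71 of 91 above the line for SCGB3A2.

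The SPINK1-led cells also carried SFTPC, the surfactant protein of AT2 cells, at 61572 CPM. With the same limit of 1%, 35 of the 91 cells were above it for both SFTPC and SCGB3A2, 36 for SCGB3A2 alone, 14 for SFTPC alone and 6 for neither. Cells above it for both were found in each of the 5 libraries that had SPINK1-led cells, with 6 and 4 for controls 1 and 3, against 1, 10 and 14 for asthma 8, 10 and 11. Of 366 AT2-like cells, 5 were above the limit for both genes, and of 17 airway secretory-like cells 0 were. Of the 35 SPINK1-led and 5 AT2-like cells above the limit for both, 0 were among the 793 kept cells with the highest doublet scores, and of all cells 2 of 91 SPINK1-led and 1 of 17 airway secretory-like cells (5.88%, the highest share of the 6 groups compared) were.

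PIGR, the IgA transporter, followed both groups. Its level was 3497 CPM in airway secretory-like, 1279 CPM in SPINK1-led, 1104 CPM in ciliated-like and 111 CPM in AT2-like cells, and it was found in 16 of 17, 86 of 91, 13 of 16 and 190 of 366 of these cells. In basal-like and AT1-like cells it came to 2 UMIs each. Most PIGR UMIs in kept cells therefore lay in SPINK1-led (44.9%) and airway secretory-like cells (29.4%). Its ligand's joining chain, JCHAIN, is a plasma cell gene and stood at 10.5 CPM in epithelial-like cells.

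BPIFB1 and MUC5B lay mainly in the airway secretory-like cells, which held 870 of 957 BPIFB1 UMIs and 34 of 36 MUC5B UMIs in kept cells. BPIFB1 UMIs in these cells numbered 18, 10 and 633 for controls 1, 2 and 3, against 143, 62 and 4 for asthma 8, 10 and 11. Control replicate 3, with 6 of the 17 cells, had most of them. MUC5B UMIs numbered 1, 0 and 11 in the controls, against 9, 4 and 9 with asthma in the same order, and the groups overlapped. AT2-like, basal-like and SPINK1-led cells had 0 MUC5B UMIs, which at 3 counts allows levels of up to 0.768, 2.01 and 2.54 CPM. MUC5B was too sparse to pass the filter on low counts of edgeR in any set of cells with all libraries. In epithelial-like cells it passed in 4 of the 6 fits that left out 1 library, with log2 fold changes from -0.23 to 0.73, none of them called. MUC5AC, the other main gel-forming mucin of the airways, was not analysed here.

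WFDC2, a secreted protein with antiprotease domains, was the broadest of the 7 genes. It was found in 355 of 366 AT2-like, 161 of 206 AT1-like, 131 of 155 basal-like and 90 of 91 SPINK1-led cells and in all 17 airway secretory-like cells. Over all 6 libraries together, its levels ran from 6528 CPM in airway secretory-like, 5624 CPM in SPINK1-led and 3512 CPM in AT2-like cells down to 807 CPM in S100A4 and TNNC1-led, 594 CPM in AT1-like, 544 CPM in ciliated-like and 397 CPM in basal-like cells. The first 2 groups are not ranked by this. Airway secretory-like levels ran from 1560 (asthma replicate 11) to 8494 CPM (control replicate 3), and SPINK1-led levels from 4714 to 7366 CPM in libraries with at least 10 such cells. Per cell, the medians were 0.447% of UMIs in airway secretory-like and 0.501% in SPINK1-led cells. AT2-like cells, being many, held 53.1% of all WFDC2 UMIs. In the libraries, AT2-like levels were 2299, 3749 and 5303 CPM for controls 1, 2 and 3, against 4459, 4620 and 3083 CPM for asthma 8, 10 and 11.

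In cells of other classes all 7 genes were low, mixed clusters set aside, with at most 32.5 CPM over the 6 libraries together. Single libraries with at least 10 cells of a group reached 122 CPM of SCGB3A1 in T and NK-like, where 1 cell of asthma replicate 10 held 771 of all 1288 UMIs, 62.6 CPM in an unnamed group led by ACE and 49.3 CPM in stromal-like cells. T and NK-like cells, which should lack them, had 8.14 CPM of SCGB1A1, 32.5 CPM of SCGB3A1, 12.2 CPM of SCGB3A2 and 4.61 CPM of WFDC2, and under 1 CPM of each of the other 3 genes. With every cell thinned to 1000 UMIs, 0.689% of T and NK-like cells and 11% of epithelial-like cells had a UMI of SCGB1A1. For SCGB3A1 these shares were 1.58% and 3.48%, for SCGB3A2 1.52% and 11.4%, for PIGR 0.0799% and 12.8% and for WFDC2 0.569% and 61.4%. Left out as too shallow were 140 T and NK-like and 21 epithelial-like cells. Before thinning, when the medians were 3660.0 UMIs in T and NK-like and 8310.0 in epithelial-like cells, SCGB1A1 was found in 2.34% and 16.6% of them and WFDC2 in 1.54% and 87.1%.

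The SCGB3A1 UMIs of T and NK-like cells differed most between libraries. They numbered 45, 28 and 362 for controls 1, 2 and 3, against 25, 826 and 2 for asthma 8, 10 and 11. Of the 826, a single cell held 771. In control replicate 3, by contrast, the 362 UMIs were spread over 303 of 1864 cells, with at most 4 in a cell, and the epithelial-like cells of the same library held 23669.

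The mix of the 3 secretoglobins in T and NK-like cells was close to that of the epithelial-like cells of the same monkey in 2 of the 6 libraries and further from it in the other 4. In control replicate 1, SCGB1A1, SCGB3A1 and SCGB3A2 made up 21.1, 16.4 and 62.5% of secretoglobin UMIs in T and NK-like cells and 23.1, 10.8 and 66.1% in epithelial-like cells. In asthma replicate 11 they made up 24.2, 2.20 and 73.6% against 27.4, 1.42 and 71.2%. In control replicate 2 the values were 38.2, 50.9 and 10.9% over 55 UMIs against 78.7, 8.26 and 13.0%, which are far apart. In control replicate 3 they were 19.9, 59.6 and 20.4% against 35.1, 46.7 and 18.3%, and in asthma replicate 8 they were 22.7, 56.8 and 20.5% over 44 UMIs against 7.2, 65.3 and 27.5%. In asthma replicate 10 they were 8.90, 80.7 and 10.4% against 13.3, 24.5 and 62.2%, with most of the SCGB3A1 UMIs in 1 cell. Where these UMIs came from was not tested, and no expression outside the epithelium was read from them.

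The main comparison was between asthma and control libraries, with UMIs summed per library. In epithelial-like cells, with all libraries fitted, SCGB1A1 differed most of the 6 genes tested, with 11381 ± 2643 CPM in the control group and 3319 ± 1921 CPM in the asthma group (SD, n = 3 each), but the difference did not pass the test. The values were 8348, 13191 and 12603 CPM for controls 1, 2 and 3, against 1107, 4279 and 4572 CPM for asthma 8, 10 and 11. Every asthma library was below every control library. The log2 fold change was -1.83 (SE 0.54) with an adjusted p of 0.651 (quasi-likelihood test of edgeR, Benjamini-Hochberg over 9016 genes), and ranged from -2.13 to -1.40 when each library was left out in turn. Of the genes tested 6.48% were likewise lower in asthma without overlap between the groups. Without control replicate 1, control replicate 2 or asthma replicate 8, BPIFB1 had the larger log2 fold change (-2.12, -1.98 and -3.03). In the other fits that left out 1 library SCGB1A1 had it.

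**Figure D3:**
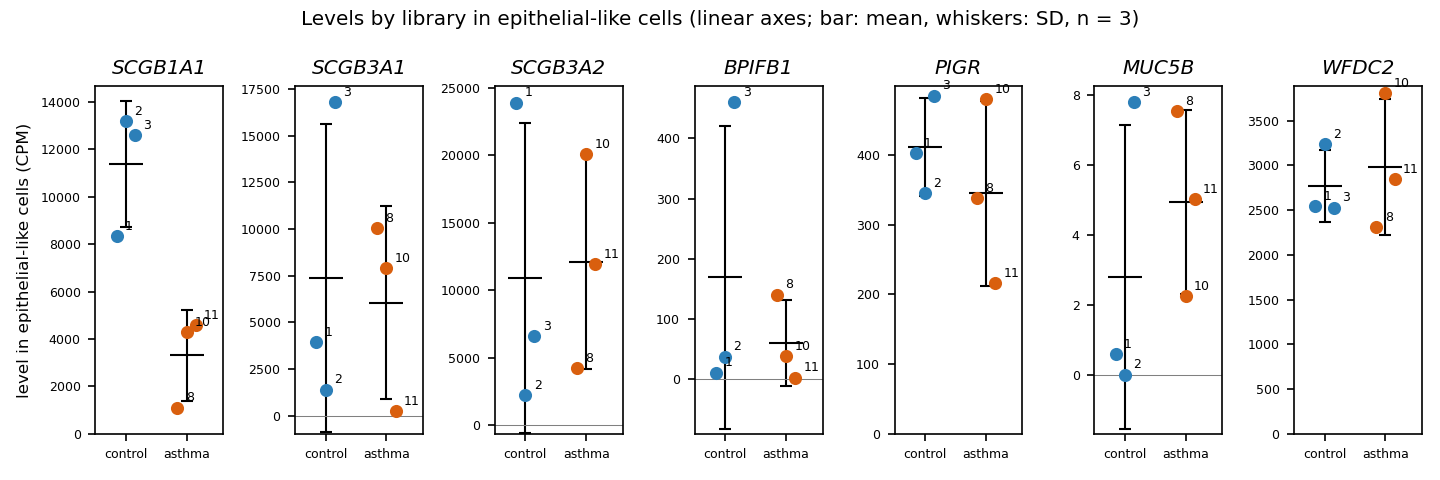
Level of each of the 7 genes in epithelial-like cells (CPM, linear vertical axes that differ between panels) for 3 control (blue) and 3 asthma (orange) libraries, labelled with their replicate number, with group means (bars) and SDs (whiskers). SCGB1A1 is the gene whose groups do not overlap, with control libraries from 8348 to 13191 and asthma libraries from 1107 to 4572 CPM.

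Few cells carried this difference. In control replicate 2 a single airway secretory-like cell held 3549 of the library's 3555 epithelial SCGB1A1 UMIs. Without the highest cell of each library the levels were 5092, 23.8 and 8342 CPM in the controls, against 586, 2991 and 1914 CPM with asthma, and the groups overlapped. In summed UMIs, fewer cells of a type and less RNA per cell cannot be told apart. Airway secretory-like cells were 1.38, 3.13 and 4.44% of epithelial-like cells for controls 1, 2 and 3, against 1.73, 1.65 and 0.813% for asthma 8, 10 and 11, and SPINK1-led cells 15.2, 0 and 12.6% against 2.31, 15.4 and 8.13%. Their part in the difference was not tested.

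The share of airway secretory-like cells was 2.98 ± 1.54% in the control and 1.40 ± 0.51% in the asthma group (SD, n = 3 each). The difference of -1.58 percentage points gave p = 0.3 in a two-sided exact permutation test, whose smallest p with 20 assignments is 0.1. The counts behind it were 2, 1 and 6 of 145, 32 and 135 cells in control and 3, 3 and 2 of 173, 182 and 246 cells in asthma replicates. Exact Clopper-Pearson 95% intervals, which cover counting error only, ran from 0.0791 to 16.2% in control replicate 2 and from 1.65 to 9.42% in control replicate 3.

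Within the SPINK1-led cells SCGB1A1 was also lower in both asthma libraries than in both control libraries, with 20503 ± 1059 CPM (control) and 12354 ± 1567 CPM (asthma, SD, n = 2 each). The log2 fold change was -0.76 (SE 0.28, adjusted p = 0.998 with edgeR over 3718 genes), and 15.9% of the genes tested in these cells were lower without overlap. In basal-like cells the log2 fold change was -0.88 (SE 0.65), or 0.030 with at least 200 genes and no upper limit, with overlapping groups and 10 UMIs or fewer in every library tested except control replicate 3. In AT2-like cells it was 0.90 (SE 0.58), or -0.17 with at most 10% mitochondrial UMIs, also with overlap, on levels from 9.57 to 37.7 CPM.

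The other secretoglobins differed more within groups than between them. SCGB3A1 in epithelial-like cells stood at 3913, 1384 and 16771 CPM for controls 1, 2 and 3, against 10031, 7899 and 237 CPM for asthma 8, 10 and 11, with a log2 fold change of -0.31 (SE 1.16, adjusted p = 0.975 with edgeR). The SCGB3A1 levels of single libraries hung on few cells. With at most 10% mitochondrial UMIs asthma replicate 8 was at 3.41 CPM, with at least 200 genes and no upper limit control replicate 2 was at 11911 CPM, and with doublets removed asthma replicate 11 was at 48.9 CPM. Without control replicate 3 the log2 fold change was 0.95. SCGB3A2 stood at 23896, 2186 and 6560.0 CPM in the controls, against 4226, 20079 and 11901 CPM with asthma. Its log2 fold change was -0.0038 (SE 0.90), or 1.53 without control replicate 1, with overlapping groups.

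In AT2-like cells SCGB3A2 had the largest fitted difference of the 4 genes tested there, a log2 fold change of 1.96 (SE 0.85, adjusted p = 0.870 with edgeR over 6185 genes), or -0.73 where the 7 genes were kept in the clustering. Leaving out each library in turn gave 1.22 (without asthma replicate 8) to 11.3 (without control replicate 1), the latter against controls all at 0 UMIs, so that it measures no size. Its UMIs numbered 316, 0 and 0 for controls 1, 2 and 3, against 522, 179 and 504 for asthma 8, 10 and 11. The levels were 292 CPM in control replicate 1 and 989, 192 and 475 CPM in the asthma replicates, so the groups overlapped. All 522 UMIs of asthma replicate 8 lay in 1 cell, 462 of the 504 of asthma replicate 11 in 1 cell, and 248 of the 316 of control replicate 1 in 1 cell.

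BPIFB1 in epithelial-like cells was 10.7, 37.1 and 459.9 CPM in the controls, against 140.3, 38.3 and 2.24 CPM with asthma, with a log2 fold change of -1.58 (SE 1.35), which was 1.54 without control replicate 3 and -3.03 without asthma replicate 8. PIGR was 403, 345 and 485 CPM in the controls, against 338, 480.3 and 216 CPM with asthma (log2 fold change -0.34, SE 0.31). WFDC2 was 2542, 3239 and 2527 CPM in the controls, against 2307, 3808 and 2845 CPM with asthma (log2 fold change 0.02, SE 0.30). The groups overlapped for each of these 3 genes. In basal-like cells WFDC2 was lower in each of 3 asthma libraries (167, 329 and 259 CPM) than in control replicates 1 and 3 (416 and 466 CPM), with a log2 fold change of -0.82 (SE 0.30, adjusted p = 0.762 with edgeR). There 11% of 2528 genes were lower without overlap.

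None of the 7 genes passed the test in any set of cells with all libraries and the filter on low counts. With no such filter SCGB3A2 in AT2-like cells (log2 fold change 1.95, adjusted p = 2.38e-10 with edgeR) and SCGB3A1 in SPINK1-led cells (-8.86) did, the latter also in 3 fits that left out 1 library, and for both genes a single cell held most of the UMIs in some libraries. A gene was called differentially expressed (DEG) where the adjusted p was below 0.05 and the log2 fold change was over 0.25 in size. In epithelial-like cells, where 6 of the 7 genes were tested, DEGs were 0 of 9016 genes (0%) with edgeR, 659 genes had an unadjusted p under 0.05, among them SCGB1A1, and DESeq2 called 5. Over all cells, 6 were tested beside 12 DEGs among 14306 genes (0.0839%). In all, 4, 2 and 4 of the 7 were tested in AT2-like, basal-like and SPINK1-led cells, beside 1 DEG in each of the AT2-like (0.0162%) and basal-like cells (0.0396%), and 0 in SPINK1-led cells (0%), where 165 genes had an unadjusted p under 0.05 and DESeq2 called 0. The groups did not overlap for 0 of 6 genes over all cells (19.3% of genes tested), 1 of 6 in epithelial-like (13.9%), 0 of 4 in AT2-like (12%), 1 of 2 in basal-like (20.7%) and 1 of 4 in SPINK1-led cells (31.9%), so that such separation was common in these data. Airway secretory-like, ciliated-like and AT1-like cells had too few cells per library for a test.

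**Figure D4:**
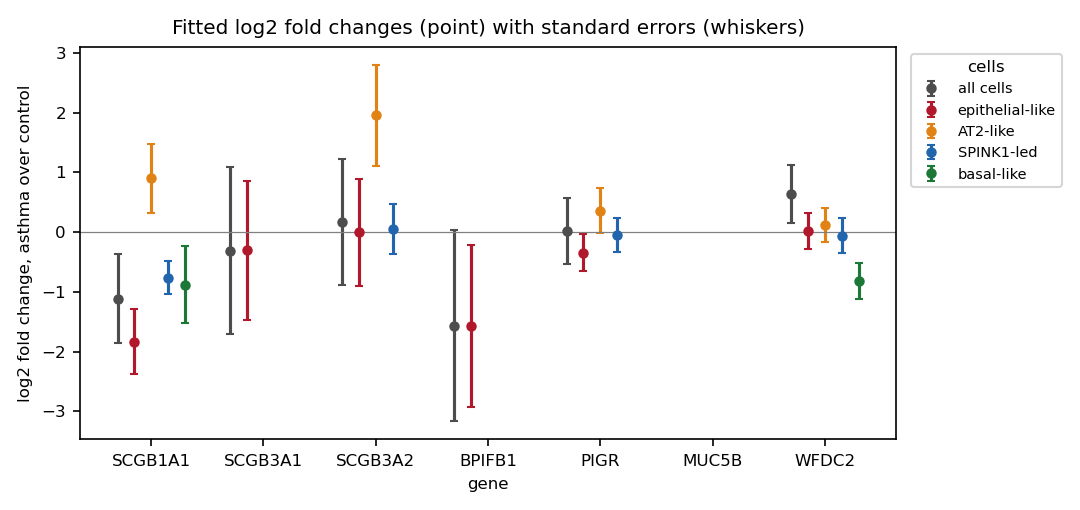
Fitted log2 fold change of asthma over control (points) with its standard error (whiskers) for each of the 7 genes in 5 sets of cells, where tested. SCGB1A1 lies below 0 in all cells (-1.12), epithelial-like (-1.83), basal-like (-0.88) and SPINK1-led cells (-0.76) and above 0 in AT2-like cells (0.90). The AT2-like value turned to -0.17 with at most 10% mitochondrial UMIs, and the basal-like value to 0.030 with at least 200 genes and no upper limit. No point passed the test, and MUC5B did not pass the filter on low counts in any of the 5 sets.

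The share of epithelial-like cells with a UMI of each gene, thinned to 1000 UMIs, overlapped between the groups for all 7 genes. SCGB1A1 was found in 11.6 ± 4.82% of control and 9.61 ± 4.39% of asthma cells (SD, n = 3 each), and the 2-sided exact permutation test gave p = 0.6, or 0.9 after Benjamini-Hochberg adjustment over the 7 genes. With 3 libraries a group its smallest p is 0.1, so it could not pass 0.05. For SCGB3A1 the shares were 4.46 ± 3.93% and 2.91 ± 1.41%, for SCGB3A2 9.27 ± 6.78% and 11.2 ± 6.49%, for PIGR 12.2 ± 7.95% and 11.4 ± 5.23% and for WFDC2 67.5 ± 17.8% and 60.7 ± 8.92%. BPIFB1 (2.77 ± 2.61% and 1.1 ± 0.66%) and MUC5B (0.247 ± 0.428% and 0.577 ± 0.585%) were rare in both groups. The adjusted p was 0.9 for each of the 7 genes. With all UMIs, the 6 libraries in the order above had SCGB1A1 in 22.8, 9.38, 30.4, 6.36, 19.2 and 11.8% of epithelial-like cells.

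A large part of the UMIs of these genes lay in barcodes that the upper limit on genes removed. There were 696 barcodes with 5000 genes or more, 1.98% of all barcodes, with a median of 39375.5 UMIs, against 4330 in kept cells. Their share of UMIs is therefore larger than their share of barcodes for genes in general. They held 50.0% of all deposited SCGB1A1 UMIs, 49.9% of SCGB3A1, 44.8% of SCGB3A2, 71.2% of BPIFB1, 48.4% of PIGR, 26.6% of MUC5B and 26.1% of WFDC2 UMIs. For SCGB1A1 this was 10147, 6759 and 24459 UMIs for controls 1, 2 and 3, against 3, 11637 and 1855 for asthma 8, 10 and 11. Asthma replicate 8 was lowest, although it had the most such barcodes (217). Of the 696 barcodes, 13 were above 1% of UMIs for both SCGB1A1 and SCGB3A1, 18 for both SCGB1A1 and SCGB3A2, and 6 for both SCGB3A1 and SCGB3A2. As CPM, the secretoglobin levels in these barcodes against kept cells were 1885 against 309 (SCGB1A1), 2214 against 346 (SCGB3A1) and 3355 against 681 (SCGB3A2). For the other genes they were 83.4 against 5.48 (BPIFB1), 117 against 19.3 (PIGR), 0.584 against 0.206 (MUC5B) and 323 against 148 (WFDC2). Whether these barcodes were large cells or several cells was not tested.

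**Figure D5:**
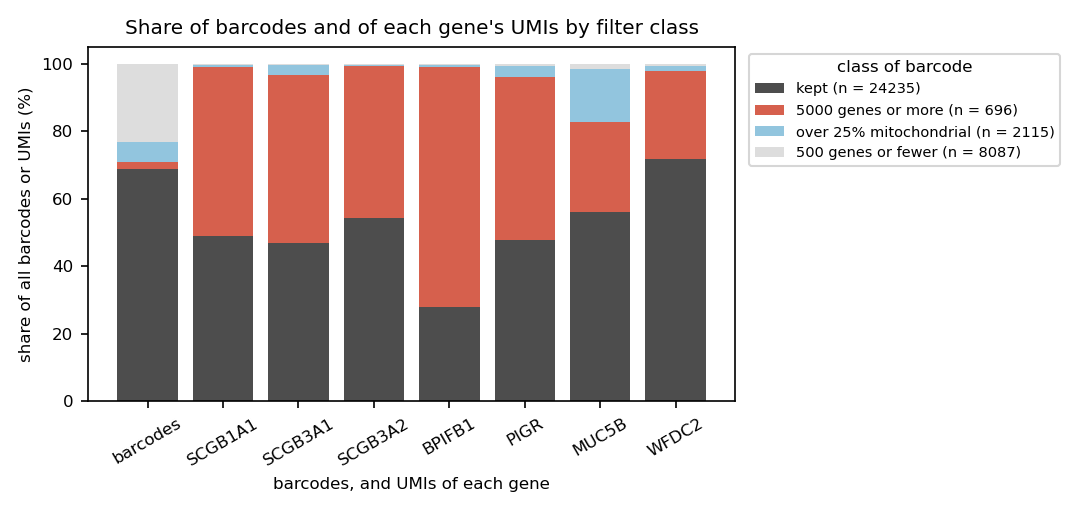
Share of all 35133 barcodes (first bar) and of the UMIs of each of the 7 genes (other bars, percent) in barcodes that were kept, had 5000 genes or more, had 500 genes or fewer, or, among the rest, had over 25% mitochondrial UMIs. The 696 barcodes with 5000 genes or more are 1.98% of barcodes and hold from 26.1% (WFDC2) to 71.2% (BPIFB1) of a gene's UMIs. Their median is 39375.5 UMIs, against 4330 in kept barcodes, so the first bar does not show their share of all UMIs.

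With no upper limit on genes and at least 200 genes, there were 1038 epithelial-like and 24 airway secretory-like cells. SCGB1A1 in epithelial-like cells was then 11028, 27175 and 15958 CPM for controls 1, 2 and 3, against 1076, 8510 and 4675 CPM for asthma 8, 10 and 11. The asthma libraries were again all below the control libraries. They were also below them with at most 10% mitochondrial UMIs, at 45.5, 5345 and 2283 CPM against at least 9129 CPM in the controls, and with doublets removed, at 1163, 3691 and 1921 CPM against at least 8522 CPM. In asthma replicate 8 the epithelial-like cells then held 40 SCGB1A1 UMIs with at most 10% mitochondrial UMIs, against 1468 with at most 25%. These settings reuse many of the same cells and are no separate evidence. Control replicate 2 held 3551 SCGB1A1 UMIs with at most 10% mitochondrial UMIs and 3555 with doublets removed, beside 3549 in 1 cell of the main setting. The share of all genes that were lower without overlap was not determined under these settings, and was 6.48% in the main one.

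Genes of the same pathways were described from lists. Of 11 other secretoglobin and BPI-fold genes in the files 0 were abundant enough for a test in epithelial-like cells, with SCGB1D2 the highest at 1.57 CPM. Of 15 genes of mucins and mucus processing 11 were tested and 0 were DEGs, with a median log2 fold change of -0.14 beside -0.01 over all genes tested. MUC1, a membrane mucin, stood at 933 CPM, and AGR2 and AGR3, protein disulfide isomerases of secretory cells, at 578 and 340.4 CPM. CLCA1, a goblet cell protein induced by IL-13, had a log2 fold change of 2.45 (SE 1.55, adjusted p = 0.704 with edgeR) with overlapping groups.

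Of 15 secreted antimicrobial and antiprotease genes 9 were tested, with 0 DEGs and a median log2 fold change of -0.06. Among them complement C3 was highest (854 CPM), followed by lipocalin LCN2 (412 CPM) and the antiprotease SLPI (378 CPM), for which the log2 fold change was -1.74 (SE 0.89, adjusted p = 0.659 with edgeR). Of 8 genes of IgA production and transport 1 was tested, TNFSF13, a B cell survival factor (41.3 CPM). Of 15 genes of the IL-13 response 5 were tested and 0 were DEGs. The lectin ITLN1 (168 CPM), which mesothelial cells also express, had a log2 fold change of 3.26 (SE 1.22, adjusted p = 0.651 with edgeR) with overlapping groups. Its TMM-scaled group means were far higher over all cells (control 1210, asthma 3460 CPM) than in epithelial-like cells (control 34.3, asthma 292 CPM). Mesothelial-like cells numbered 31, 46 and 49 for controls 1, 2 and 3, against 266, 200 and 30 for asthma 8, 10 and 11. Whether the ITLN1 UMIs of epithelial-like cells came from mesothelial cells was not tested. The median of the 5 IL-13 response genes tested was -0.25, the value of the peptidase DPP4 (46.1 CPM, SE 0.46). CISH (-0.29) and CDH26 (-0.30), named after their values were seen, were also below 0.

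Of 16 secretory cell transcription factors and Notch genes 11 were tested, with 0 DEGs, and of 8 genes of club cell metabolism 6 were tested, also with 0 DEGs. The median log2 fold changes of the 2 lists were -0.44 and -0.41, beside -0.01 over all genes tested. The lung factors NKX2-1 and FOXA2 stood at 381 and 166 CPM and the Notch target HES1 at 221 CPM. CYP4B1, FMO2 and ALDH1A1, enzymes of club cell metabolism, stood at 1514, 834 and 705 CPM. FOXA2, FMO2 and CYP4B1 were higher in asthma without overlap, as were 7.43% of genes tested, with log2 fold changes of 0.45 (SE 0.26), 0.68 (SE 0.31) and 1.27 (SE 0.54), none of which passed the test. The same held for the Notch receptor NOTCH2 (0.63), named after its values were seen. Of the 6 club cell metabolism genes tested, 1 was lower in asthma without overlap, as were 6.48% of all genes tested. CYP4B1 was at 8118 CPM in AT1-like and 244 CPM in airway secretory-like cells, and AT1-like cells numbered 16, 4 and 3 in the controls, against 94, 30 and 59 with asthma. The part of this in the difference was not tested.

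The genes whose levels ran most like each of the 7 were sought over 87 combinations of library and cell group with at least 10 cells, on a log2(CPM + 10) scale. Airway secretory-like cells, where SCGB1A1 and SCGB3A1 were highest, and ciliated-like cells were fewer than this in every library and were left out. The combinations of 1 library share its depth and its background, and most lie near 0 for these genes, so that each r rests on few combinations. SCGB1A1 reached 10 CPM in 17 of the 87, SCGB3A2 in 39 and PIGR in 10, beside 7 for SPINK1 and CYP2A23, which also lead 1 of the cell groups, and 4 for SPDEF. SCGB1A1 ran most like CYP2A23 (Pearson's r = 0.96), SPINK1 (0.95) and SPDEF (0.89), and SCGB3A2 most like SPDEF (0.94), SPINK1 (0.92) and SLC22A3 (0.89). SPDEF is a transcription factor of secretory cells. PIGR ran most like NR0B2 (0.96) and ARHGEF38 (0.94), and WFDC2 most like MUC1 and S100A14 (0.97 each), IRX2, AGR3 and NKX2-1. For SCGB3A1 the highest r were those of XKR9 (0.63) and LRG1 (0.61). The cells with most of its UMIs were left out, so that no lack of a close match can be read from these values. Between members, r was 0.91 for SCGB1A1 with SCGB3A2, 0.92 for PIGR with SCGB3A2 and 0.37 for SCGB1A1 with SCGB3A1. The last value is without the airway secretory-like cells, of which 15 of 17 were above 1% of UMIs for both genes.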

How the data were processed

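The deposited values were raw counts of UMIs per gene and barcode. The authors had aligned reads of 3′ droplet libraries (10x Chromium) to the macFas6 assembly with Cell Ranger, for which the file headers give version 4.0.0 and the submitters' processing notes 2.1.1. The study's methods name a version other than these, and which of them made the matrices is not known. Replicates were not pooled. Whether intronic reads were counted is not given in the sources used here.

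The 7 genes and all lists of related and marker genes were chosen with earlier results of these data known. Barcodes were kept with over 500 and under 5000 genes, 500 UMIs or more and a share of 37 mitochondrial genes of no more than 25%. Clusters came from 2000 variable genes without the 7, 10 principal components, 20 neighbours and Leiden resolution 0.8 (scanpy 1.11.5), and were named from markers, none of them among the 7. Sub-clusters with markers of another class were set aside as mixed. Epithelial groups were taken from the sub-clusters of that round, a choice made after clustering the epithelial cells again merged secretory with ciliated cells. Median UMIs per cell were 17835 in airway secretory-like, 12891 in SPINK1-led and 10781.5 in AT2-like cells. Doublets were treated only in an alternative, in which the 793 cells with the highest Scrublet scores were removed (0.8% per 1000 cells of a library).

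UMIs were summed per library over each set with at least 10 cells in at least 2 libraries a group and fitted with edgeR 4.0.16 (quasi-likelihood test, TMM, filterByExpr) in R 4.3.3, with Benjamini-Hochberg adjustment over all genes tested. SPINK1-led cells were no named type, and their fit was added after seeing the data. The pipeline was tested on simulated counts. Alternatives were DESeq2 1.42.0, no filter on low counts, other limits on genes and mitochondrial share, doublet removal, resolution 1.6, clustering with the 7 genes and leaving out each library. Shares were compared by exact permutation over 20 assignments. Samples were 1 library per monkey, so that p-values measure the spread between monkeys. Named genes were the 7, the DEGs and 3 most abundant genes of each list, and the 5 genes most correlated with each member. No genome of the files' build was used here, so no coordinates or sequences are given. The authors' annotation of cells was not used.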

Additional observations from a re-analysis of the deposited data

How the results depend on the processing

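No paired analysis was possible because the groups came from different monkeys. Of 436 alternative values of 35 results, 355 were counted as the same, in direction and side of the threshold where a result had these. The permutation tests of shares among them have a smallest p of 0.1, so that their side of 0.05 was fixed. For 22 log2 fold changes of the 7 genes, 232 of 273 alternative values were counted as the same and 40 as reversed. DEGs numbered 647 (DESeq2), 45 (no filter on low counts), 7 (at least 200 genes, no upper limit) and 6 (all barcodes) over all cells, 5 (DESeq2) and 2 (no filter) in epithelial-like, 78 (no filter) and 2 (at most 10% mitochondrial) in AT2-like, 5 (DESeq2) and 41 (no filter) in basal-like and 47 (no filter) and 1 (at least 200 genes, no upper limit) in SPINK1-led cells. Leaving out 1 library gave 0 to 11 over all cells (0 without control replicate 1 and without asthma replicate 10), 0 to 5 in AT2-like, 1 to 19 in basal-like and 19 to 76 in SPINK1-led cells, where a group was then 1 library assumed to vary like the others. Of the 7 genes, SCGB3A2 in AT2-like cells became a DEG with no filter (1.95, adjusted p = 2.38e-10 with edgeR), and SCGB3A1 in SPINK1-led cells with no filter (-8.86) and in 3 fits without 1 library, where 1004 of 1011 UMIs of control replicate 3 lay in 1 cell. SCGB1A1 was lower in asthma in epithelial-like cells under every alternative run and was called under none. With at most 10% mitochondrial UMIs the log2 fold change turned to -0.16 for PIGR over all cells, 0.13 for SCGB3A2 in epithelial-like and -0.17 for SCGB1A1 in AT2-like cells. With at least 200 genes and no upper limit, 2 choices changed at once, it turned to -0.85 (PIGR), -0.31 (SCGB3A2) and -0.0088 (WFDC2) over all cells, -0.30 (WFDC2) in epithelial-like, 0.030 (SCGB1A1) in basal-like and 0.049 (WFDC2) in SPINK1-led cells, and with all barcodes to -0.77 (PIGR) and -0.29 (SCGB3A2). SCGB3A2 turned to 0.0038 (no filter) and 0.0046 (resolution 1.6) in epithelial-like cells, -0.73 in AT2-like cells with the 7 genes kept in clustering, and -0.0063 (doublets removed) and -0.070 (clustered again, chosen after seeing the data) in SPINK1-led cells. Ranges without 1 library that crossed 0 were -0.41 to 0.34 (PIGR), -0.36 to 1.65 (SCGB3A2), -0.87 to 1.33 (SCGB3A1) and -2.70 to 2.15 (BPIFB1) over all cells, -0.61 to 1.53 (SCGB3A2), -0.81 to 0.95 (SCGB3A1), -3.03 to 1.54 (BPIFB1) and -0.23 to 0.21 (WFDC2) in epithelial-like, -0.013 to 1.14 (PIGR) and -0.13 to 0.44 (WFDC2) in AT2-like, and -0.32 to 0.18 (PIGR), -0.51 to 0.97 (SCGB3A2) and -0.27 to 0.20 (WFDC2) in SPINK1-led cells. Differences in the share of epithelial-like cells with a UMI turned to -0.84 (all UMIs) and -0.19 (at least 3 UMIs) for SCGB3A2, 2.66 (at most 10% mitochondrial) and 1.99 (all UMIs) for PIGR and 4.70 for WFDC2 (at most 10% mitochondrial) percentage points. Without 1 library they ran from -4.72 to 0.15 (SCGB1A1), -3.09 to 0.66 (SCGB3A1), -1.18 to 5.53 (SCGB3A2), -3.05 to -0.46 (BPIFB1), -5.37 to 2.03 (PIGR), 0.03 to 0.62 (MUC5B) and -16.8 to 0.12 (WFDC2), and that of airway secretory-like cells from -2.39 to -0.85. The causes were not tested. Airway secretory-like cells were not named with at most 10% mitochondrial UMIs, with the 7 genes kept in clustering or when clustered again, and basal-like cells could not be tested with at most 10% mitochondrial UMIs. Depth limits MUC5B and BPIFB1 most, with 36 and 957 UMIs in kept cells.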

Other observations

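Some droplets outside the epithelial-like cells held many UMIs of these genes. Among 212 cells set aside as mixed in the mesothelial cluster, 131 came from control replicate 1, and these carried 2075 of the 2082 SCGB3A2 UMIs of the set, at 5750 CPM. Among 116 mixed cells of the epithelial cluster, SCGB3A2 came to 2574 UMIs in 19 cells, 652, 1001 and 911 of them in control replicates 1, 2 and 3. The 1001 UMIs of control replicate 2 lay in 1 cell. Ciliated-like cells of asthma replicate 8 had SCGB3A1 at 151033 CPM, with 2574 of 4085 UMIs in 1 cell, beside 1421 CPM in control replicate 3 and 116 CPM in asthma replicate 10.

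MUC5B, the rarest of the 7 genes, was found in 13 kept cells in all. CLCA1, a product of goblet cells, stood at 1719 CPM in the airway secretory-like cells, beside 120.2 CPM for MUC5B.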
